A study of Mus musculus with 16 samples.

Results

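Transcript levels of 4 lipid-sensing nuclear receptor genes, *Ppara*, *Ppard*, *Pparg* and *Rxra*, and of 5 of their classic enterocyte targets, *Pdk4*, *Angptl4*, *Plin2*, *Cpt1a* and *Fabp1*, were followed in terminal ileum taken from *Tas1r3*+/+ and from *Tas1r3*-/- mice. The 9 genes were chosen by name, and the level of each is the sum over all transcripts that carry its name. They are 9 of the 23299 genes quantified, and all 9 were among the 19042 genes that were tested. The mice were C57BL/6 males and females. The *Tas1r3*-/- mice carried the Tas1r3tm1Csz allele, which removes the sweet and umami taste receptor subunit from every cell of the body, and had been backcrossed to C57BL/6; the *Tas1r3*+/+ mice were littermates. Each genotype received a normal diet with plain water (ND) or a Western diet (WD), a 60% high-fat diet with a 30% sugar solution to drink, for 10 weeks. The labels give 4 samples per group, called here male 1, male 2, female 1 and female 2 and taken as separate mice.

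Peroxisome proliferator-activated receptors (PPARs) are transcription factors that are switched on by fatty acids and their derivatives. Each pairs with a retinoid X receptor such as RXRα, and the pair binds a direct repeat of AGGTCA with 1 base between the copies. PPARα is best known for driving fatty acid oxidation, PPARδ is the form usually found in the gut epithelium, and PPARγ is the master regulator of fat cells and is also found in the epithelium of the distal gut and in macrophages. In enterocytes that absorb dietary fat, the targets followed here import fatty acids into mitochondria (CPT1A), spare glucose (PDK4), block lipoprotein lipase (ANGPTL4), coat lipid droplets (PLIN2) and carry fatty acids in the cytosol (FABP1).

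The quantity reported throughout is the RPKM, in which the reads of a transcript are normalised for its length and for the size of the library. It was deposited per transcript, and was here summed to genes and then scaled between libraries. The 9 genes were measured in 13 libraries. Both female columns of the ND-fed *Tas1r3*-/- group were set aside. They equaled means of the males' columns, weighted 0.75 to 0.25 for female 1 and 0.625 to 0.375 for female 2, in all but 17 and 18 of 59258 transcripts. Of the 9 genes, 3 are among the 13 genes with departing transcripts: *Ppara* and *Pparg* with 3 transcripts each and *Cpt1a* with 1. All deposited *Pparg* values lay below the weighted means. For Pparg-202 the RPKM was 4.08 against 4.52 in female 1 and 3.25 against 4.79 in female 2. Cpt1a-201 was also below, at 28.9 against 35.6 and 33.3 against 38.4. The *Ppara* transcripts departed in both directions. In WD-fed *Tas1r3*-/- mice, doubling the female 2 value and subtracting female 1 left 6 or fewer significant digits for 96.8% of 58280 transcripts, and the gene levels of these columns correlated at r = 0.994, against 0.911 to 0.973 for the other 18 pairs within groups. These columns were averaged into 1 library, called the female library. The groups therefore hold 4, 2, 4 and 3 libraries, and ND-fed *Tas1r3*-/- mice are represented by males alone. The depth implied by the steps between low values was 7004410 to 12384647 reads per library. On a transcript of 1 kb, 1 read was worth 0.0692 to 0.139 RPKM. *Tas1r3* itself had a scaled RPKM of 1.58 to 6.53 in the 8 *Tas1r3*+/+ libraries and of at most 0.00515 in the 5 *Tas1r3*-/- libraries. The bile acid transporter gene *Slc10a2* and the bile acid binding protein gene *Fabp6*, which define the ileum, were found in every library, at 19.1 to 211 and 718 to 8967 scaled RPKM, whereas the summed level of 5 markers of the proximal small intestine was 1.22 to 6.965, with *Gata4* at most 0.889 and *Adh6a* at most 5.95. Of 5 colon markers, 4 were in the table and summed to 40.2 to 332, most of it from *Car4* at 35.9 to 291.

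In the female 2 column of WD-fed *Tas1r3*-/- mice, 33779 of 59258 transcripts have values of more than 6 significant digits. That column is not counted here or below, and female 1 stands for the averaged library. Among the 13 columns counted, values have at most 6 significant digits almost without exception. Only 169 of the 770354 values exceed that, and these lie in 70 genes, or 0.3004% of the genes. They include 4 of the 9 genes: *Pparg* with 7 such values in all 3 of its transcripts, *Ppara* with 6 in Ppara-201 and Ppara-203, *Cpt1a* with 5 in all 3 of its transcripts and *Fabp1* with 1. *Ppard*, *Rxra*, *Pdk4*, *Angptl4* and *Plin2* have none. Of the 70 genes, 75.7% did not overlap between the WD-fed genotypes, compared with 2.53% of the other genes tested. The shares lay closer together between the ND-fed genotypes (25.7% and 22%). They were 25.7% and 10.3% between the diets in *Tas1r3*+/+ mice and 28.6% and 20.6% in *Tas1r3*-/- mice. The results for *Pparg*, *Ppara*, *Cpt1a* and *Fabp1* are therefore given with and without such values.

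The promoters are shown for *Pparg*, whose 3 quantified transcripts begin at separate start sites, and for *Fabp1*. Of the 8 genes with a matched promoter, *Fabp1* had the longest match to the PPAR response element in the 250 bases upstream. The sequences are RefSeq promoters of build GRCm38.p6, all on the plus strand of chromosome 6 and printed from 5′ to 3′ up to the base before the RefSeq start site, with the searched letters in capitals. For *Fabp1*, the capitals mark the reverse complement of a match to AGGNCANAGGNCA, 67 to 55 bases before the start site. For *Pparg*, they mark AGGTCA.
Fabp1, chr6:71199759-71199878: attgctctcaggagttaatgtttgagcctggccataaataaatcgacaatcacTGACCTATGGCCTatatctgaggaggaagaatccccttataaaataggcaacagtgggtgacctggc
Pparg, RefSeq start site nearest to that of Pparg-202, chr6:115361064-115361143: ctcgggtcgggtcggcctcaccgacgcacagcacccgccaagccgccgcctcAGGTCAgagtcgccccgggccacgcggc
Pparg, RefSeq start site nearest to that of Pparg-204, chr6:115362269-115362348: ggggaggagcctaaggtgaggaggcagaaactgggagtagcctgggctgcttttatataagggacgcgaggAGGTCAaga
Pparg, RefSeq start site nearest to that of Pparg-201, chr6:115421986-115422065: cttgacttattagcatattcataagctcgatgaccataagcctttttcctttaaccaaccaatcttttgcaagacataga

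The RefSeq start sites lie 0, 57 and 193 bases from the annotated starts of Pparg-201, Pparg-204 and Pparg-202, and 52 bases from that of Fabp1-201, in each case downstream of the annotated start where the distance is above 0. The last 52 bases of the *Fabp1* sequence therefore fall within the transcript that was quantified, though not its capitals. The last 57 bases of the sequence for Pparg-204, its AGGTCA included, and all 80 bases of that for Pparg-202 also lie within those transcripts, so that only the sequence for Pparg-201 lies wholly before the annotated start. AGGTCA, read on both strands, stood in the 250 bases upstream of 14% of 32851 promoters. It stood in 6 of the 11 promoters matched for 8 of the 9 genes (those of *Cpt1a*, *Fabp1*, *Plin2*, *Pparg* and *Rxra*). *Angptl4* had no promoter matched and was not searched. The full repeat AGGTCANAGGTCA, which holds AGGTCA in both its parts, occurred in 0.0335% of all promoters and in none of these 11. With 1 free base in each part (AGGNCANAGGNCA), it occurred in 0.338% of all promoters and in the *Fabp1* promoter alone among the 11. A match is a run of letters and not a measured binding site.

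*Pparg*, on chromosome 6 (115360951 to 115490399, plus strand, mm10), was low in all mice and was highest in *Tas1r3*-/- mice on both diets. In ND-fed *Tas1r3*+/+ mice its scaled RPKM was 1.26 and 2.85 in the males and 2.78 and 4.01 in the females, and in ND-fed *Tas1r3*-/- mice it was 9.98 and 9.49 in the 2 males. In WD-fed *Tas1r3*+/+ mice it was 1.04 and 0.894 in the males and 0.701 and 2.68 in the females, and in WD-fed *Tas1r3*-/- mice it was 6.27 and 4.67 in the males and 10.3 in the female library. Every *Tas1r3*-/- library was above every *Tas1r3*+/+ library on both diets. The fitted log2 difference between the genotypes was 2.10 (SE 0.39) on the WD, a 4.27-fold higher level, and 1.74 (SE 0.44) on the ND. Neither passed the threshold for a differentially expressed gene, which was an adjusted p under 0.01 with a fold change of at least 2 (limma, Benjamini-Hochberg adjusted p = 0.255 and 0.901). In *Tas1r3*+/+ mice the log2 difference of the WD from the ND was -0.85 (SE 0.36), which also did not pass (adjusted p = 0.283), and in *Tas1r3*-/- mice the diets overlapped. The order of the group means was 9.74 ± 0.35 (SD, n = 2) in ND-fed *Tas1r3*-/- mice, 7.08 ± 2.89 (n = 3) in WD-fed *Tas1r3*-/- mice, 2.72 ± 1.13 (n = 4) in ND-fed and 1.33 ± 0.91 (n = 4) in WD-fed *Tas1r3*+/+ mice, and neighbours of the same genotype overlapped.

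The *Pparg* level rested on few reads. The values imply 13.5 to 222 reads per library (median 74.9). None of the 3 transcripts gave a whole number of reads in any library, within a tolerance of 0.02. That was also so for Plin2-204, which holds no value of more than 6 digits and had a similarly low 1.29 to 69.3 reads. A lack of whole numbers therefore does not by itself set *Pparg* apart. All 3 transcripts carry values of more than 6 digits, so no *Pparg* level remains once such transcripts are left out. When the gene was set to missing in each library with such a value, 7 of the 13 libraries were left, with 1 of them in each *Tas1r3*-/- group; the WD difference was then 2.98 on the log2 scale (adjusted p = 0.899), and that between the diets in *Tas1r3*-/- mice went from -0.50 to 0.04.

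The transcripts of *Pparg* did not share one pattern. Pparg-201 and Pparg-202, with median shares of 32.0% and 38.5% of the gene, were highest in ND-fed *Tas1r3*-/- mice, at 3.47 to 4.48 and 4.17 to 4.92 scaled RPKM. In WD-fed *Tas1r3*-/- mice they were at 1.23 to 2.60 and 1.41 to 3.36. Pparg-204 was instead highest in WD-fed *Tas1r3*-/- mice, at 2.04 to 4.33, and was at 0.222 to 0.343 in WD-fed *Tas1r3*+/+ mice. In WD-fed *Tas1r3*+/+ mice, Pparg-201 reached 1.42 in female 2, above the lowest WD-fed *Tas1r3*-/- library, so that Pparg-202 and Pparg-204 were the transcripts whose WD-fed genotypes did not overlap. Exons shared by the transcripts leave their reads to be divided by the quantification, and these differences between transcripts were not tested.

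*Ppara*, on chromosome 15 (85734983 to 85802819, plus strand), was similarly low, and its genotypes did not overlap on either diet. In ND-fed *Tas1r3*+/+ mice its scaled RPKM was 1.72 and 4.71 in the males and 1.86 and 3.34 in the females, and in ND-fed *Tas1r3*-/- mice it was 6.76 and 4.85. In WD-fed *Tas1r3*+/+ mice it was 1.65 and 0.871 in the males and 1.41 and 3.43 in the females. In WD-fed *Tas1r3*-/- mice it was 6.11 and 6.69 in the males and 7.16 in the female library. The gap on the ND was narrow, since ND-fed *Tas1r3*+/+ male 2 lay just under *Tas1r3*-/- male 2. The log2 difference was 1.72 (SE 0.36, adjusted p = 0.524 by limma) on the WD and 0.96 (SE 0.41, adjusted p = 0.901) on the ND, and neither passed. Between the diets it was -0.56 (SE 0.34) in *Tas1r3*+/+ mice and 0.20 (SE 0.44) in *Tas1r3*-/- mice.

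Ppara-202 made up a median of 77.7% of the *Ppara* level and has no value of more than 6 digits in the columns counted. Its scaled RPKM was 0.844 to 1.77 in WD-fed *Tas1r3*+/+ mice and 4.01 to 4.79 in WD-fed *Tas1r3*-/- mice. On the ND it was 1.45 to 2.68 in *Tas1r3*+/+ and 3.952 and 4.003 in *Tas1r3*-/- mice. The genotypes thus did not overlap in this transcript on either diet. Ppara-202 is, however, among the transcripts that depart from the weighted means in the female ND-fed *Tas1r3*-/- columns, which were set aside. Its deposited RPKM was 3.24 against a weighted mean of 4.08 in female 1, and 4.37 against 4.23 in female 2. With Ppara-201 and Ppara-203 left out, the log2 difference was 1.45 on the WD (adjusted p = 0.444) and 0.81 on the ND (adjusted p = 0.904). With the 3 libraries that hold such values set to missing instead, it was 2.01 on the WD (adjusted p = 0.643). Ppara-201 ranged from 8.98e-05 to 2.76 scaled RPKM over the 13 libraries and was at most 0.0376 in WD-fed *Tas1r3*+/+ male 1, male 2 and female 1.

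**Figure D1:**
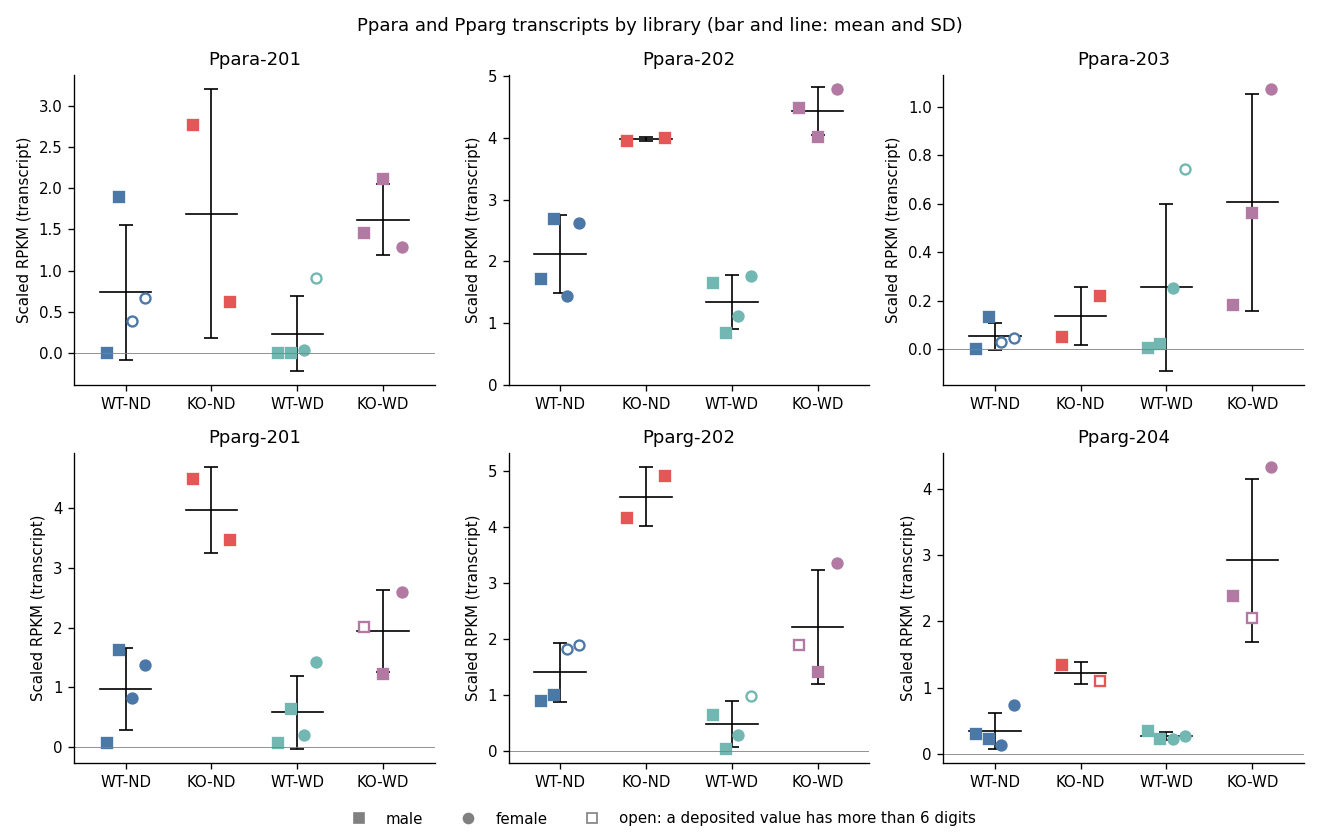
Scaled RPKM of each Ppara and Pparg transcript (vertical axis) by group (horizontal axis). There is 1 point per library (squares for males, circles for females), with the group mean and SD in black. Open points hold a deposited value of more than 6 digits, not counting female 2 of WD-fed Tas1r3-/- mice. Ppara-202 has no open point, with WD-fed KO libraries at 4.01 to 4.79 and WD-fed WT libraries at 0.844 to 1.77, whereas the single highest group is ND-fed KO for Pparg-201 and Pparg-202 and WD-fed KO for Pparg-204 (WT, Tas1r3+/+; KO, Tas1r3-/-).

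*Ppard*, on chromosome 17 (28232700 to 28301474, plus strand), was by far the most abundant PPAR transcript in the ileum, at 32.6 to 121 scaled RPKM, and showed another pattern, in which ND-fed *Tas1r3*+/+ mice stood highest. Its scaled RPKM was 99.5 and 57.6 in the males and 118 and 121 in the females of that group, against 35.8, 54.9, 32.6 and 71.3 in WD-fed *Tas1r3*+/+ males 1 and 2 and females 1 and 2. In *Tas1r3*-/- mice it was 62.4 and 59.0 on the ND and 41.2, 53.1 and 80.2 on the WD. ND-fed male 2 fell within the range of WD-fed *Tas1r3*+/+ mice and the other 3 ND-fed libraries lay above it. The log2 difference between the diets in *Tas1r3*+/+ mice was -1.03 (SE 0.31), a 2.04-fold lower level on the WD, with an adjusted p of 0.157 by limma. With RPKM as deposited and no scaling, the same difference was -1.46 with an adjusted p of 0.00753, while the median of all genes moved by -0.38. In *Tas1r3*-/- mice the difference between the diets was -0.11 (SE 0.40), and the genotypes differed by -0.64 (SE 0.38) on the ND and 0.27 (SE 0.33) on the WD. None of these passed. As ND-fed *Tas1r3*-/- mice are males alone, sex enters the ND difference, which was -0.32 with males only and -0.40 with sex as a covariate. The 5 transcripts shared this level very unequally, with Ppard-201 at a median of 84.4%.

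*Rxra*, which encodes the common partner of the PPARs (chromosome 2, 27676440 to 27762957, plus strand), varied less than any PPAR within *Tas1r3*+/+ mice. Its scaled RPKM was 37.0 to 46.1 (median 39.1) in ND-fed and 27.1 to 33.7 (median 27.9) in WD-fed *Tas1r3*+/+ mice, without overlap. In *Tas1r3*-/- mice it was 31.9 and 24.3 on the ND, below every ND-fed *Tas1r3*+/+ library, and 18.7, 23.4 and 40.9 on the WD. The female library of the last group lay above all 4 WD-fed *Tas1r3*+/+ libraries and the 2 males below them. The log2 difference was -0.46 (SE 0.22, limma adjusted p = 0.331) between the diets in *Tas1r3*+/+ mice and -0.52 (SE 0.27, adjusted p = 0.901) between the genotypes on the ND. On the WD it was -0.15, with a 95% interval of -0.66 to 0.36.

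**Figure D2:**
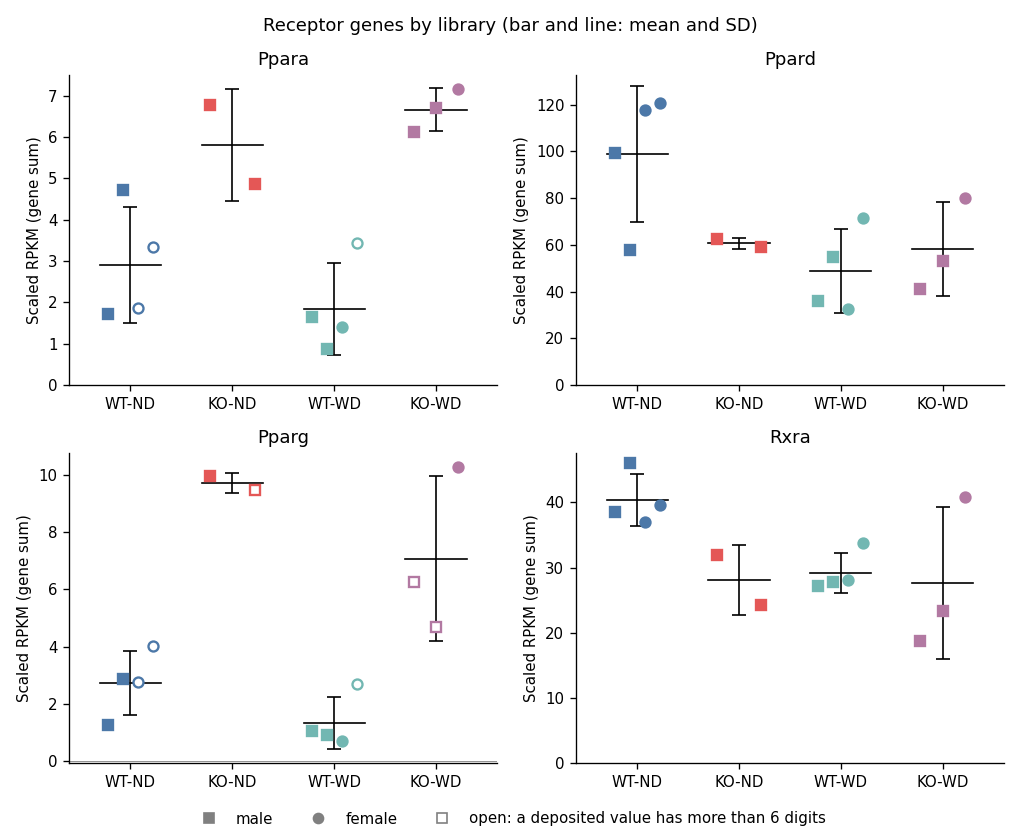
Scaled RPKM (vertical axis, from 0) of the 4 receptor genes by group (horizontal axis), with 1 point per library (squares for males, circles for females), the group mean and SD in black, and open points for libraries with a deposited value of more than 6 digits in that gene. Ppara and Pparg are low and separate by genotype (WT, Tas1r3+/+; KO, Tas1r3-/-), whereas Ppard at 32.6 to 121 and Rxra at 18.7 to 46.1 stand highest in ND-fed WT mice.

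*Cpt1a*, which encodes the rate-limiting enzyme of fatty acid entry into mitochondria (chromosome 19, 3322334 to 3385733, plus strand), followed *Ppara* and *Pparg*. Its scaled RPKM was 28.1, 37.2, 25.8 and 28.7 in ND-fed *Tas1r3*+/+ males 1 and 2 and females 1 and 2, and 36.5 and 47.2 in ND-fed *Tas1r3*-/- males. On the WD it was 19.6, 19.9, 23.9 and 30.9 in the same order of *Tas1r3*+/+ mice and 40.6, 37.1 and 50.1 in *Tas1r3*-/- mice. The WD-fed genotypes did not overlap, and on the ND male 2 of the *Tas1r3*+/+ mice lay inside the *Tas1r3*-/- range. The log2 difference was 0.85 (SE 0.21), or 1.81-fold, on the WD and 0.48 (SE 0.24) on the ND, and neither passed (limma adjusted p = 0.909 and 0.901). Between the diets it was -0.35 (SE 0.19) in *Tas1r3*+/+ and 0.03 (SE 0.25) in *Tas1r3*-/- mice. The protein-coding Cpt1a-201 held a median of 83.0% of the gene, and its genotypes did not overlap on the ND either. Its scaled RPKM there was 19.3 to 25.8 in *Tas1r3*+/+ and 31.4 and 42.0 in *Tas1r3*-/- mice. The retained-intron Cpt1a-203 went the other way on the WD, with means of 3.87 in *Tas1r3*+/+ and 1.76 in *Tas1r3*-/- mice. Differences between these transcripts were not tested. All 3 *Cpt1a* transcripts carry values of more than 6 digits. With the gene set to missing in the libraries that hold them, 9 libraries were left, 1 of them WD-fed *Tas1r3*-/-, and the WD difference was 0.93 (adjusted p = 1.000).

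*Fabp1* (chromosome 6, 71199827 to 71205023, plus strand) is one of the most abundant transcripts of proximal enterocytes but was low in these ileal samples, at 0.551 to 16.01 scaled RPKM, or 3 to 89 reads. The libraries stood at 2.93, 7.92, 7.39 and 1.29 scaled RPKM in ND-fed *Tas1r3*+/+ mice and 5.32 and 0.551 in ND-fed *Tas1r3*-/- males. They stood at 4.62, 5.29, 16.01 and 14.9 in WD-fed *Tas1r3*+/+ mice and 0.586, 4.88 and 4.28 in WD-fed *Tas1r3*-/- mice. Only 1 WD-fed *Tas1r3*-/- library, male 2, lay above the lowest WD-fed *Tas1r3*+/+ library. The log2 difference on the WD was -1.62 (SE 0.77, 95% interval -3.28 to 0.04), opposite in sign to that of *Cpt1a*, and did not pass (limma adjusted p = 1.000). In *Tas1r3*+/+ mice the WD-fed level differed from the ND-fed level by 1.05 (SE 0.71, adjusted p = 0.495). With the 1 value of more than 6 digits, in WD-fed *Tas1r3*+/+ male 2, set to missing, the WD difference was -1.85.

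*Angptl4*, which encodes a secreted inhibitor of lipoprotein lipase and is among the most responsive PPAR targets (chromosome 17, 33773750 to 33781830, minus strand), had the widest spread of the 9 genes. The scaled RPKM of the gene was 42.5, 180, 19.2 and 51.0 in ND-fed *Tas1r3*+/+ mice and 46.2 and 15.1 in ND-fed *Tas1r3*-/- males. On the WD it was 10.6, 16.2, 38.2 and 24.2 in *Tas1r3*+/+ mice and 3.82, 5.95 and 55.2 in *Tas1r3*-/- mice. The 2 WD-fed *Tas1r3*-/- males were the lowest of all libraries and the female library was the second highest. The log2 difference was -1.37 (SE 0.81) between the diets in *Tas1r3*+/+ mice, -1.22 (SE 1.05) in *Tas1r3*-/- mice, and -0.83 (SE 0.88) and -0.97 (SE 0.99) between the genotypes on the WD and the ND. All 4 intervals included 0, and single libraries moved these values widely: with 1 library left out at a time, they ran from -1.96 (without the female library) to -0.12 between the genotypes on the WD, from -1.76 to -0.18 on the ND, and from -2.36 to -0.43 between the diets in *Tas1r3*-/- mice. The summed level comes almost wholly from Angptl4-203, an annotated retained-intron transcript of 539 bases (median 59.4%), and Angptl4-202, annotated as a nonsense-mediated decay transcript (39.1%), while the full protein-coding Angptl4-201 held a median of 1.80%.

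*Plin2*, which encodes the lipid droplet coat protein of fat-absorbing enterocytes (chromosome 4, 86648386 to 86670060, minus strand), had a scaled RPKM of 30.3, 66.9, 44.2 and 53.2 in ND-fed *Tas1r3*+/+ mice and of 39.8 and 46.5 in ND-fed *Tas1r3*-/- males. On the WD it was 32.5, 25.4, 59.9 and 42.2 in *Tas1r3*+/+ mice and 21.3, 19.8 and 39.2 in *Tas1r3*-/- mice. The WD-fed *Tas1r3*-/- libraries all lay below the ND-fed ones, closely so for the female library (39.2 against 39.8). The log2 difference between the diets in *Tas1r3*-/- mice was -0.74 (SE 0.40, limma adjusted p = 0.952), and that between the genotypes on the WD was -0.57 (SE 0.34, adjusted p = 1.000). *Pdk4*, which encodes the kinase that shuts off glucose oxidation (chromosome 6, 5483351 to 5496309, minus strand), was also low, with 22.3 to 183 reads. Its scaled RPKM was 0.809 to 4.29 (median 1.69) in ND-fed and 0.641 to 5.21 (median 1.25) in WD-fed *Tas1r3*+/+ mice, 1.37 and 1.33 in ND-fed and 1.53, 1.11 and 0.679 in WD-fed *Tas1r3*-/- mice. The groups overlapped in all 4 comparisons, and the log2 differences lay between -0.43 and -0.11.

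**Figure D3:**
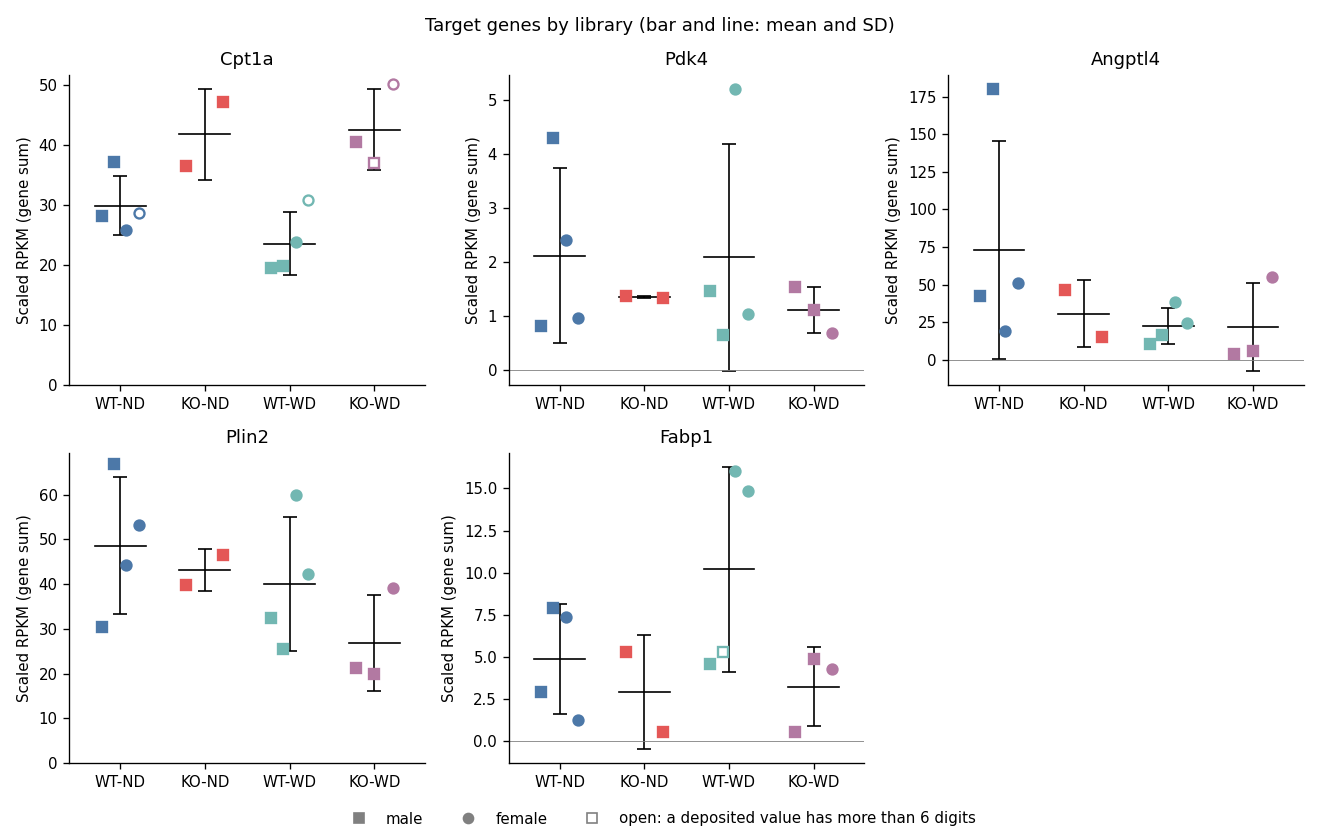
Scaled RPKM (vertical axis, from 0 or below where an SD line crosses 0) of the 5 target genes by group (horizontal axis), with 1 point per library (squares for males, circles for females), the group mean and SD in black, and open points for libraries with a deposited value of more than 6 digits in that gene. Cpt1a separates the WD-fed genotypes (WT, Tas1r3+/+, 19.6 to 30.9; KO, Tas1r3-/-, 37.1 to 50.1), while Angptl4, Plin2, Fabp1 and Pdk4 overlap between them.

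Over the 9 genes, none was called in any comparison. Between the WD-fed genotypes, 0 of 9 were called against 0.0105% of all genes (2 of 19042), and 3 of 9 had an unadjusted p under 0.05 (*Pparg*, *Ppara* and *Cpt1a*) against 2.56%. The same 3 genes were higher in *Tas1r3*-/- mice with no overlap, against 1.58% of all genes, and 0 were lower with no overlap, against 1.22%. Of the 5 genes with no values of more than 6 digits, 0 were without overlap in this comparison and 1, *Ppard*, had a positive difference. Between the ND-fed genotypes, 0 of 9 were called against 0% of all genes, and 2 of 9 had an unadjusted p under 0.05 against 4.55%. *Ppara* and *Pparg* were higher with no overlap, against 8.27% of all genes, and *Rxra* was lower with no overlap, against 13.7%.

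Between the diets, no gene was called either. In *Tas1r3*+/+ mice, 0 of 9 genes were called against 0.00525% of all genes (1 of 19042), and 2 of 9 (*Ppard* and *Pparg*) had an unadjusted p under 0.05 against 15.7%. There, 8 of 9 were lower on the WD, with a median log2 difference of -0.46 against -0.0019 over all genes; 0 of 9 were higher with no overlap, against 3.68% of all genes, and *Rxra* was lower with no overlap, against 6.69%. In *Tas1r3*-/- mice, 0 of 9 were called against 0% and 0 of 9 had an unadjusted p under 0.05 against 5.31%. *Plin2* was lower with no overlap, against 10.2% of all genes, and 0 of 9 were higher with no overlap, against 10.4%. For the genotype by diet interaction, 0 of 9 were called against 0% and 0 of 9 had an unadjusted p under 0.05 against 1.41% of all genes, so a difference between the diets in the genotype effect was not detected. For *Pparg* the interaction was 0.35 with a 95% interval of -0.92 to 1.62, and for *Ppard* it was 0.92 with an interval of -0.18 to 2.01. The genotype and diet comparisons share libraries, as WD-fed *Tas1r3*+/+ mice enter both the WD genotype and the *Tas1r3*+/+ diet comparison.

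**Figure D4:**
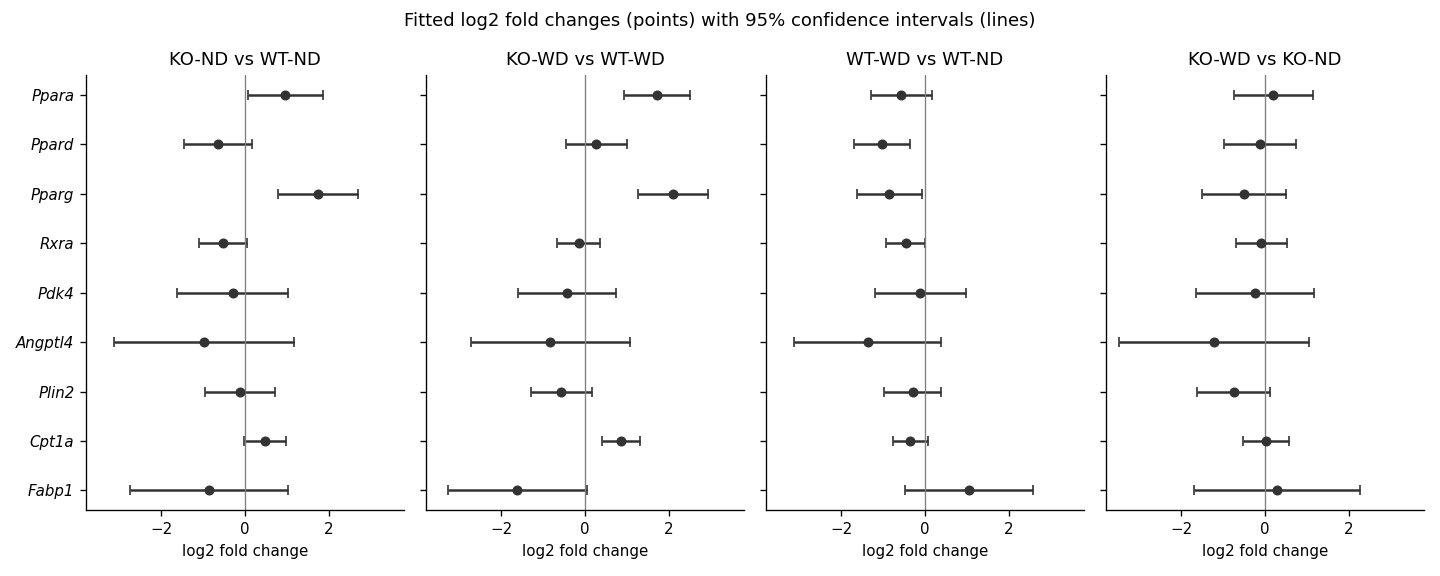
Fitted log2 fold change of each of the 9 genes (points, horizontal axis) with its 95% confidence interval (lines) in the 4 comparisons (panels; WT, Tas1r3+/+; KO, Tas1r3-/-). On the WD the intervals of Ppara, Pparg and Cpt1a lie above 0 (0.93 to 2.51, 1.26 to 2.94 and 0.40 to 1.31) before adjustment for the number of genes tested, whereas every interval of the diet comparison in KO mice includes 0.

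The 9 genes fell into separate courses across the 13 libraries. *Ppara*, *Pparg* and *Cpt1a* ran together, with Pearson correlations of their scaled log2 values of 0.903 (*Ppara* and *Pparg*), 0.905 (*Ppara* and *Cpt1a*) and 0.887 (*Pparg* and *Cpt1a*). These points share the 4 groups and the scaling, and all 3 genes carry values of more than 6 digits. *Rxra* ran with *Angptl4* (0.887) and less closely with *Ppard* (0.648) and *Plin2* (0.635), and *Angptl4* with *Plin2* (0.783). *Rxra* and *Pparg* were close to unrelated (-0.07). Among 10828 genes with a mean RPKM of at least 5, the gene nearest to *Ppara* and to *Pparg* was *Cpt1a* itself, followed for *Ppara* by the Paneth cell defensin genes *Defa24* (0.862) and *Defa43* (0.858). The gene nearest to *Cpt1a* was *Pck1* (0.856). *Pck1* and *Defa24* each carry 1 value of more than 6 digits, and *Pck1* is among the 13 genes with departing transcripts. *Rxra* was nearest to *Jup* (0.971), which encodes the junction protein plakoglobin, *Ppard* to *Mst1r* (0.960) and *Elf3* (0.949), an epithelial transcription factor, and *Angptl4* to *Tmem63b* (0.961). *Fabp1* was nearest to *Vwa8* (0.931) and then to *Apoa4* (0.827), the apolipoprotein gene of fat-absorbing enterocytes, *Plin2* to *Wdr45* (0.938) and *Pdk4* to *Pmm1* (0.946).

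A wider set of 59 genes of the PPAR network, of which 54 were tested, showed no call in any direction in the 4 comparisons. Between the WD-fed genotypes, 22 were higher and 32 lower in *Tas1r3*-/- mice, with a median log2 difference of -0.11 against -0.01 over all genes; 3 were higher and 4 lower with no overlap, against 1.58% and 1.22% of all genes. On the ND, 11 were higher and 43 lower, with a median of -0.31, and 1 was higher and 12 lower with no overlap, against 8.27% and 13.7%. In *Tas1r3*+/+ mice, 15 were higher and 39 lower on the WD, with a median of -0.25, and 9 of 54 had an unadjusted p under 0.05, against 15.7% of all genes. With no overlap, 0 were higher and 9 of 54 lower, against 3.68% and 6.69% of all genes. In *Tas1r3*-/- mice the counts were 20 and 34, with a median of -0.11, and 0 were higher and 4 lower with no overlap, against 10.4% and 10.2%.

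Of 11 partners and coregulators tested, 5 were higher and 6 lower in WD-fed *Tas1r3*-/- mice, from -0.31 for the coactivator gene *Ncoa2* to 0.32 for *Ppargc1b*. On the ND, 4 were higher and 7 lower, from -0.68 for the corepressor gene *Nrip1* to 0.46 for *Lpin1*, the coactivator and phosphatidate phosphatase gene, which differed by 0.13 on the WD. Of 13 mitochondrial and ketogenic targets, 11 were lower and 2 higher in WD-fed *Tas1r3*-/- mice (median -0.36). *Cpt2*, the inner-membrane partner of CPT1A, was the highest of them at 1.41 (limma adjusted p = 0.311), and carries 3 values of more than 6 digits. *Cpt2* was also the lowest of this list between the diets in *Tas1r3*+/+ mice, at -1.49 (adjusted p = 0.0530).

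Of 8 peroxisomal and microsomal targets, none carries a value of more than 6 digits. Between the WD-fed genotypes, 6 were lower and 2 higher (median -0.48), and *Acot1*, an acyl-CoA thioesterase gene, was the lowest at -1.07. On the ND, 7 of the 8 were lower, with a median of -0.66, and the pantetheinase gene *Vnn1* was the lowest at -1.36. Among 13 genes of fatty acid uptake, binding and activation, 6 were higher and 7 lower in WD-fed *Tas1r3*-/- mice. *Scd1*, the stearoyl-CoA desaturase gene, was the highest at 3.24 (limma adjusted p = 0.311) and *Fabp2*, the intestinal fatty acid binding protein gene, the lowest at -2.28 (adjusted p = 1.000). *Scd1*, with 1 value of more than 6 digits, differed by -3.13 between the diets in *Tas1r3*+/+ mice (adjusted p = 0.0698). Of 9 PPARγ targets of fat cells, 0 were higher and 9 lower on the WD in *Tas1r3*+/+ mice, with a median of -0.74 and *Plin1*, the perilipin of fat cells, lowest at -2.70 (adjusted p = 0.156). Between the WD-fed genotypes, 7 were higher and 2 lower, and the highest was the adiponectin gene *Adipoq* at 1.83 (adjusted p = 1.000), which carries 1 value of more than 6 digits.

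The study's own text names 7 genes for PPAR signaling, which were chosen on these mice and so are not independent evidence of a direction. All 7 carry values of more than 6 digits. They were higher in WD-fed *Tas1r3*-/- mice for 6 of 7, with a median of 1.41, and 4 of 7 did so with no overlap, against 1.58% of all genes; only *Acadm* had a negative difference, at -0.08. In the wider set, 8 of the 54 genes tested carry such values and 46 do not. Between the WD-fed genotypes, 6 of the 8 genes were higher and 2 lower in *Tas1r3*-/- mice (median log2 difference 0.86), and 3 were higher with no overlap. Among the 46 genes without such values, 16 were higher and 30 lower (median -0.18), and of these 0 were higher and 4 lower with no overlap, against 1.58% and 1.22% of all genes. In *Tas1r3*+/+ mice on the WD, the corresponding medians were -0.50 for the 8 genes, all lower, and -0.11 for the 46.

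Markers of cell types that the samples can hold moved with some of these genes. Summed over 10 enterocyte markers, the scaled RPKM was 7741 to 12090 in ND-fed and 5476 to 17340 in WD-fed *Tas1r3*+/+ mice, 2780 and 5593 in ND-fed *Tas1r3*-/- males, and 1173, 3742 and 14820 in WD-fed *Tas1r3*-/- male 1, male 2 and the female library. All 10 markers were lower in *Tas1r3*-/- mice on both diets, with a median log2 difference of -1.09 on the ND and -0.73 on the WD. The female library that stood apart from the males in *Rxra*, *Angptl4*, *Ppard* and *Plin2* is the one with the high enterocyte sum. It also had the highest adipocyte marker sum of the 13 libraries (286). Its smooth muscle marker sum was the lowest of its group (1393, against 2913 and 5189), and it is the only female library there. In bulk tissue, fewer cells of a type and less RNA per cell cannot be told apart. The sum of 4 Paneth cell markers was 6779 to 18520 in WD-fed *Tas1r3*+/+ and 25670 to 37630 in WD-fed *Tas1r3*-/- mice, without overlap, as for *Ppara*, *Pparg* and *Cpt1a*. On the ND it was 8914 to 27320 and 24900 to 49590. Most of the sum came from *Defa24*, at 3603 to 13950 and 18310 to 28180 in the WD-fed genotypes, which carries 1 value of more than 6 digits, and *Itln1* overlapped between them, at 826 to 2006 and 1171 to 2888. The sum of the 4 colon markers was 140 to 332 in ND-fed and 47.2 to 144 in WD-fed *Tas1r3*+/+ mice, the comparison in which 8 of the 9 genes were lower on the WD. These ranges overlapped. All 4 colon markers were lower on the WD, 2 of them with an unadjusted p under 0.05 against 15.7% of all genes, with a median log2 difference of -0.83. Adipocyte markers fell further in the same comparison, with 8 of 8 lower, 4 of them with an unadjusted p under 0.05, and a median of -2.03.

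*Pparg* is also a gene of fat cells and macrophages. The sum of 8 adipocyte markers was 23.2 to 272 in ND-fed and 8.43 to 95.2 in WD-fed *Tas1r3*+/+ mice, 87.2 and 172 in ND-fed *Tas1r3*-/- males, and 64.5, 19.5 and 286 in WD-fed *Tas1r3*-/- mice, so the groups overlapped in each comparison. None of the 8 was at 0 in all libraries. On the WD, 7 of the 8 were higher in *Tas1r3*-/- mice, with a median log2 difference of 0.77. On the ND, 2 were higher and 6 lower in *Tas1r3*-/- mice, with a median of -0.25. In *Tas1r3*+/+ mice, 8 of 8 were lower on the WD, with a median of -2.03. Within groups the order of the adipocyte sum followed that of *Pparg* in part. Among ND-fed *Tas1r3*+/+ mice, male 1 was far lowest in the sum (23.2, against 207 to 272) and lowest in *Pparg* (1.26, against 2.78 to 4.01). The highest sum there was in female 1 and the highest *Pparg* level in female 2. Among WD-fed *Tas1r3*-/- mice, male 2 was lowest and the female library highest in both, whereas WD-fed *Tas1r3*+/+ female 1 had the highest sum and the lowest *Pparg* level of its group, and of the ND-fed *Tas1r3*-/- males the one with the lower sum, male 1, had the higher *Pparg* level. The sum of 8 macrophage markers was 119 to 225 in WD-fed *Tas1r3*+/+ and 82.1 to 163 in WD-fed *Tas1r3*-/- mice, with 8 of 8 lower. On the ND it was 112.9 to 206.8 in *Tas1r3*+/+ and 174 and 207.5 in *Tas1r3*-/- mice, with 8 of 8 higher (median log2 difference 0.36). The sum of 6 smooth muscle markers was 1040 to 3933 in WD-fed *Tas1r3*+/+ and 1393 to 5189 in WD-fed *Tas1r3*-/- mice. The part of these markers in the differences of the 9 genes was not tested.

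**Figure D5:**
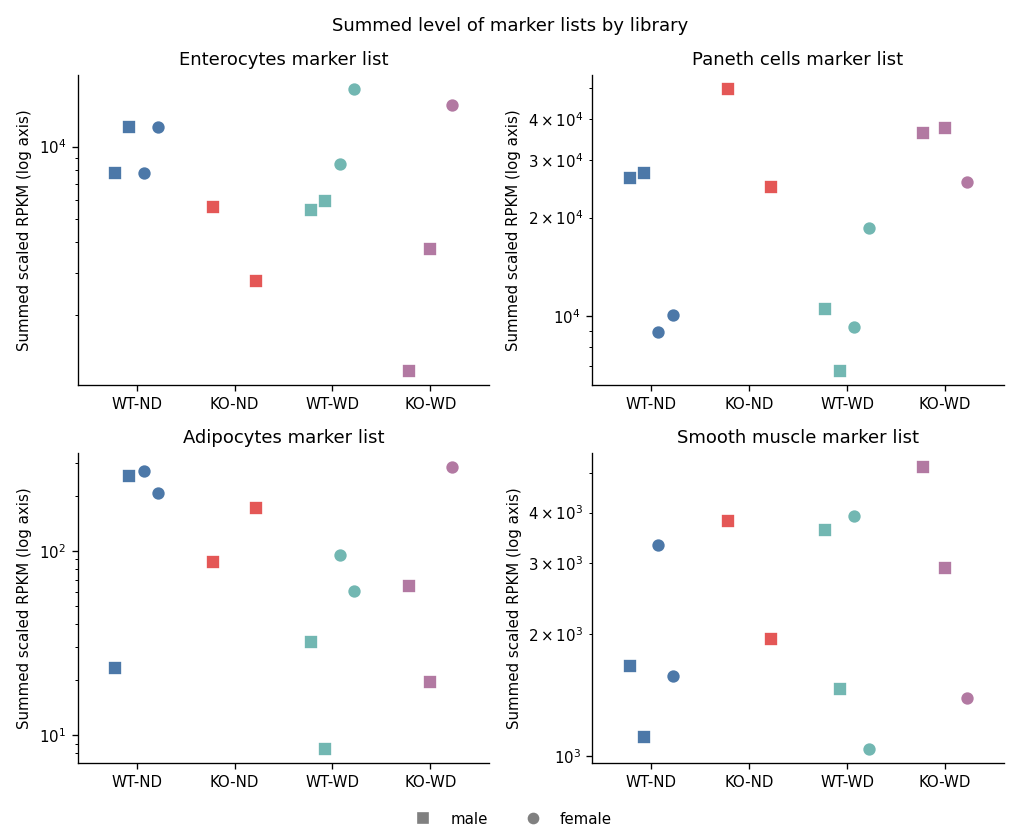
Summed scaled RPKM of 4 marker lists (vertical axis, log scale) by group (horizontal axis; WT, Tas1r3+/+; KO, Tas1r3-/-), with 1 point per library, squares for males and circles for females. Enterocyte sums in WD-fed KO mice spread from 1173 to 14820, and Paneth cell sums in the WD-fed groups do not overlap (6779 to 18520 and 25670 to 37630).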

How the data were processed

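Ileal poly(A) RNA, depleted of ribosomal RNA, was sequenced (Ion Proton), and the authors mapped the reads to GRCm38 (mm10) with STAR in Partek Flow and quantified them against Ensembl transcripts. The values the authors deposited are RPKM per transcript; ND columns sum to 817011 to 819916 and WD columns to 542371 to 672933, and the library total behind them is not given in the sources used here. Transcripts were matched to GENCODE M21 for 98.2% of names and summed to genes. Columns that are weighted means were left out or averaged. A trimmed mean of log ratios (30% of ratios and 5% of levels trimmed) gave the scale factors, 0.681 to 1.400. Genes that reached 1 RPKM in 2 or more libraries were fitted as log2(scaled RPKM + 0.5) with limma 3.58.1 (R 4.3.3), using its trend option and all 4 groups in 1 model, and p-values were adjusted by Benjamini-Hochberg over 19042 genes. Fold changes on this scale understate those of low genes. A gene was called at an adjusted p under 0.01 and at least 2-fold. Tables were made with Python 3.11.15, numpy 2.4.6 and pandas 2.3.3, and the fit was tested on simulated data. The members, gene lists, marker lists and tests were chosen with earlier results of these data known, so no pattern here is independent evidence. Named list genes are those with the highest or lowest log2 difference of their list, except for 1 result that is not reported here, and named neighbours are among the 3 genes with the highest correlation. P-values measure the spread between these samples only, and reads implied by the RPKM steps were whole for 79.5% to 87.9% of low values of genes with 1 transcript. Same-numbered samples of different groups were not treated as pairs. Over 16 such pairs the correlation of their deviations from the group means was -0.18 to 0.57 (median 0.07), and 7 exceeded 0.1. Over 46 pairs with other numbers it was -0.63 to 0.62 (median -0.03), and 12 exceeded 0.1. Alternatives covered the scaling, pseudocount, filter, columns kept, covariates, threshold and each library left out.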

Additional observations from a re-analysis of the deposited data

Results flagged for a closer look

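1 value stood apart from its group. *Rxra* in WD-fed *Tas1r3*+/+ female 2 was 33.7 scaled RPKM, against 27.1 to 28.1 in the other 3 libraries. Its gap to the next library was 0.851 of the group's range, past the 95% critical value of Dixon's test for 4 samples. Among 18 groups of 4 libraries tested in this way, chance flags about 1 in 20. The same library had the lowest scale factor of the 13, 0.681, and the highest enterocyte marker sum, 17340. The cause was not tested.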

How the results depend on the processing

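In the limma fits, none of the 9 genes was called under any alternative except *Ppard* between the diets in *Tas1r3*+/+ mice, where RPKM with no scaling gave 1 call (-1.46, against a shift of -0.38 in the median of all genes). In the wider set, that comparison had 3 calls without scaling (*Cpt2*, *Scd1* and *Ncoa3*), 1 with all 16 columns as labelled (*Cpt2*) and 0 to 1 when a library was left out, the 1 being *Scd1* without ND-fed *Tas1r3*+/+ male 1. The numbers were not taken to pair the samples, and a replicate block gave 0 calls among the 9 genes. Of 1176 values of the single genes under the alternatives, 46 changed sign, all for differences that were not called; the cause was not tested.

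Of these, the block gave 0.13 for *Plin2* between the ND-fed genotypes, -0.11 for *Fabp1* between the diets in *Tas1r3*-/- mice and -0.14 for the interaction of *Angptl4*. Sex as a covariate gave 0.16 for *Plin2* between the ND-fed genotypes, -0.030 for *Cpt1a* between the diets in *Tas1r3*-/- mice and -0.10 for the interaction of *Angptl4*. With males only, *Pdk4* was at 0.28 between the WD-fed genotypes and 0.72 for the interaction, *Pparg* at -0.062 for the interaction, and *Cpt1a* and *Fabp1* at -0.095 and -0.034 between the diets in *Tas1r3*-/- mice. All 16 columns gave 0.025 for *Rxra* between the WD-fed genotypes, and 0.025 for *Ppard* and 0.054 for *Rxra* between the diets in *Tas1r3*-/- mice. For the latter comparison, no scaling gave -0.17 for *Ppara* and -0.36 for *Cpt1a*. With values of more than 6 digits set to missing, an alternative chosen after seeing the data, it gave 0.042 for *Pparg* and -0.032 for *Cpt1a*.

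When each library was left out in turn, the differences that changed sign spanned -0.56 to 0.059 for *Pdk4*, -0.32 to 0.052 for *Plin2* and -2.10 to 0.37 for *Fabp1* between the ND-fed genotypes, and -0.47 to 0.088 for *Rxra* and -0.70 to 0.055 for *Pdk4* between the WD-fed genotypes. They spanned -0.59 to 0.25 for *Pdk4* between the diets in *Tas1r3*+/+ mice. In *Tas1r3*-/- mice the diets spanned -0.024 to 0.42 for *Ppara*, -0.37 to 0.11 for *Ppard*, -0.41 to 0.15 for *Rxra*, -0.16 to 0.21 for *Cpt1a* and -0.94 to 1.53 for *Fabp1*. The interaction spanned -0.48 to 0.35 for *Pdk4*, -0.99 to 0.94 for *Angptl4* and -1.99 to 0.48 for *Fabp1*. *Pparg*, *Ppara* and *Cpt1a* kept a positive genotype difference on both diets under every alternative that gave one. Low reads limit *Fabp1*, *Pdk4*, *Pparg* and *Ppara*, and ND-fed *Tas1r3*-/- mice had 2 libraries.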
